A study of Mus musculus with 9 samples.

Results

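Aim2, Ifi203, Ifi204, Ifi205 and Pyhin1 are genes of the mouse PYHIN family, and they were chosen by their symbols from a table of 23234 genes, of which they are 5. The cells were group 2 innate lymphoid cells (ILC2s, lymphocytes of tissues that make type 2 cytokines) isolated in the fat-associated lymphoid clusters (FALC) of C57BL/6 mice of wild-type genotype, whose age the labels leave out. They were cultured for 48 h in 3 groups of 3 libraries, and every group received IL-33, the alarmin that activates ILC2s, at 10 ng/ml. The control group had IL-33 alone, a second group had IL-33 plus IFN-γ, the type II interferon, at 10 ng/ml, and the third had IL-33 plus IL-27, a cytokine of the IL-12 family, at 10 ng/ml. RNA sequencing gave 1 value a gene and library in FPKM (fragments per kilobase of transcript, scaled to the mapped fragments of the library), a unit that allows levels of different genes to be set side by side per length.

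PYHIN proteins join a pyrin domain, which binds other pyrin domains, to a HIN domain, which binds double-stranded DNA. AIM2 is the member whose role is best established. When it meets DNA in the cytosol it recruits the adaptor ASC (gene Pycard), which activates caspase-1, so that IL-1β and IL-18 are processed and gasdermin D opens pores in the membrane. The remaining mouse genes lie beside Aim2 in a cluster called Ifi200, named after its response to interferon. The protein of Ifi204 has been linked to DNA sensing through STING, and that of Ifi205 to the expression of Pycard in macrophages.

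The promoter windows of the family are shown first, as a description. Whether their letters bear on the levels given below was not tested. RefSeq's table for mouse build GRCm38.p6 gave a window of 300 bases, from 250 before to 50 after the annotated start, for 10 of the 12 PYHIN genes listed in the data. Among the 5, windows were found for Aim2, Ifi203, Ifi205 and Pyhin1 (called Ifi209 there). Ifi203 has 2 annotated starts, and the window of the second is printed, since the window of the first held no match to the motif described next. Capitals mark matches on either strand to GAAA, any 2 bases and GAAA, the core of the interferon-stimulated response element that IRF proteins bind. Aim2 is at chr1:173420354-173420653 on the + strand, Pyhin1 at chr1:173630609-173630908 on the + strand, Ifi203 at chr1:173942443-173942742 on the - strand, and Ifi205 at chr1:174031706-174032005 on the - strand.
Aim2: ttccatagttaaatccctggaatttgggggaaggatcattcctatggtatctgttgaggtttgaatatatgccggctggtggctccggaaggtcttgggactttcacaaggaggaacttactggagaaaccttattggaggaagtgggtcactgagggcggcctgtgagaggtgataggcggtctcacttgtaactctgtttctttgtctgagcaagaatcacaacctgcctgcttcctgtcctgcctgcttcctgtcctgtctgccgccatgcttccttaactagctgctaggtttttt
Pyhin1: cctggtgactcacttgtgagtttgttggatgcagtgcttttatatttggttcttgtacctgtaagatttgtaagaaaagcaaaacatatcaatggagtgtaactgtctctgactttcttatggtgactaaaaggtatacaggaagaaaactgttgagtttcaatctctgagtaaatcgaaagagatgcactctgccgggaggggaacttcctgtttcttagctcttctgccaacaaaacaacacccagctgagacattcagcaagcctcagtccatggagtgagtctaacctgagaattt
Ifi203: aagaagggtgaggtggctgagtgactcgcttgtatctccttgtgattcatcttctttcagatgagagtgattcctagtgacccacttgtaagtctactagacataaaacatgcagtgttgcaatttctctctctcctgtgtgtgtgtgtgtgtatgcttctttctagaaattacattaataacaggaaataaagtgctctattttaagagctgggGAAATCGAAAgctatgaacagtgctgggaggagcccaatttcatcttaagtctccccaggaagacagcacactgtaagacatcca
Ifi205: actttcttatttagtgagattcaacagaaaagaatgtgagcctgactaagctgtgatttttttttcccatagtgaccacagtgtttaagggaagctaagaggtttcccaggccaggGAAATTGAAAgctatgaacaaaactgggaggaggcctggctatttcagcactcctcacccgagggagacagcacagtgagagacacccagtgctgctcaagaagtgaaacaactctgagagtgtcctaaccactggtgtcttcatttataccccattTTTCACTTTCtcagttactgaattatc
The core was present in the Ifi203 window, 35 bases before the start, and in the Ifi205 window, 134 bases before the start, where a second match on the opposite strand began 23 bases after it. It was not in the letters of the Aim2 and Pyhin1 windows, which says nothing about sites outside them. Judged by its distance from the Pyhin1 window, the Aim2 window lies within the Aim2 gene of the mm9 annotation described below, and not at its start. Over the family, 7 of the 10 genes with a window held the core, against 3.44% of the 32851 windows of all genes. The core of the gamma-activated sequence, an element of IFN-γ response genes (TTC, any 3 bases and GAA) was found on either strand in the window of 1 family gene, Ifi202b, and in 8.3% of all windows. A match of one motif can share letters with a match of the other, and a match describes letters and shows no binding.

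The matches read on the strand of the gene were alike beyond the core, as the 40 bases around them show (capitals mark the core, build GRCm38.p6). Matches on the opposite strand have other letters and are not shown. They were the one in the Ifi205 window given above and TTTCTCTTTC in another Mndal window, 54 bases before the start.
Ifi203: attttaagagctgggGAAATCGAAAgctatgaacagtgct
Mndal: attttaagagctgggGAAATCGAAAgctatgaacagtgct
Pydc3: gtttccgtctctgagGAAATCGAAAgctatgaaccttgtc
Pydc4: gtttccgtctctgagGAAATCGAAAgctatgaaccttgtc
AI607873: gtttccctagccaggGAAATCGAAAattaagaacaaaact
Mnda: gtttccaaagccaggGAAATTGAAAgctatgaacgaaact
Ifi205: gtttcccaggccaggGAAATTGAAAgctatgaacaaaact
The stretches of Ifi203 and its neighbour Mndal were identical, as were those of Pydc3 and Pydc4. In 5 of the 7 genes the core on the strand of the gene read GAAATCGAAA, and in Mnda and Ifi205 it read GAAATTGAAA. The form GAAATCGAAA, looked for after it had been seen here, occurred in 16 of the 32851 windows. Of these, 7 were at the Ifi200 locus, where the table has 14 windows.

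By the GENCODE vM1 annotation of build mm9, the build of the deposited values, the 5 genes lie on chromosome 1 within 681 kb, and 12 listed genes, all of them PYHIN genes, stand from the first to the last. Aim2 (ENSMUSG00000037860.8, chr1:175281010-175396171, + strand) is at one end and Ifi205 (ENSMUSG00000054203.6, chr1:175942129-175961886, - strand) at the other. Between them are Pyhin1 (ENSMUSG00000043263.8, chr1:175560990-175578059, + strand), Ifi204 (ENSMUSG00000073489.3, chr1:175677424-175697050, - strand) and Ifi203 (ENSMUSG00000039997.10, chr1:175850538-175872803, - strand). The Ifi203 gene overlaps Mndal on the same strand, and Mnda lies inside the Mndal gene.

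Reads of close copies can be assigned to the wrong gene, so shared sequence was counted from the annotated transcripts in stretches of 50 bases. None of the stretches of Aim2 occurred in another PYHIN gene, and 2.85% of those of Ifi203 did. For Ifi204 the share was 28.3%, most of it with Mnda (22.1%). For Pyhin1 it was 35.6%, all of it with BC094916. Ifi205 shared 49.5%, nearly all of it with Mnda (49.4%). Aim2 therefore shared no such stretch, and Ifi203 few, with the other PYHIN genes listed in the data. Genes outside that list were not compared, and Ifi203 overlaps Mndal on the same strand. The split between Ifi205 and Mnda, between Ifi204 and Mnda and between Pyhin1 and BC094916 is uncertain.

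The libraries held between 10504 and 11004 genes with at least 1 FPKM and roughly 889000 to 979000 fragments. The number of fragments was estimated from the steps between low values, which were sought in a preset range alone, so it is approximate. At this depth 3 fragments in Aim2 correspond to 1.08 to 1.19 FPKM, in Ifi204 to 1.30 to 1.43 FPKM and in Ifi205 to 1.90 to 2.09 FPKM. ILC2 markers were present in all libraries, among them Gata3 at 161 to 348 FPKM and Il5 at 1657 to 9222 FPKM. Of 13 listed macrophage and dendritic cell markers, 7 to 10 were at 0 in each library. Their summed level was 3.83 to 12.0 FPKM under IL-33, 6.75 to 23.6 under IFN-γ and 1.44 to 17.6 under IL-27, most of it Cd68 in 8 of the 9 libraries, while Csf1r, Fcgr1, Mrc1 and Clec9a were at 0 in all. Of 7 fibroblast markers, the summed level was 33.6, 81.2 and 58.0 FPKM in the replicate 3 libraries of IL-33, IFN-γ and IL-27 and at most 17.1 FPKM in the other 6. Whether the replicates came from separate cultures or animals is not stated, and p-values measure only how far these libraries spread. Lower RNA per cell and fewer expressing cells cannot be told apart in such bulk samples.

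With IL-33 alone, Aim2 was the most abundant of the 5, at 26.6, 24.9 and 19.9 FPKM in replicates 1, 2 and 3 (mean 23.8 ± 3.48 SD, n = 3). Ifi203 followed at 5.05, 4.91 and 19.4 FPKM and Pyhin1 at 4.65, 5.51 and 11.1 FPKM, and these ranges overlapped. Ifi205 was at 1.44, 1.05 and 1.2 FPKM and Ifi204 at 0.243, 0.334 and 1.00 FPKM. Every one of these last values lies under what 3 fragments give, so in the control cells the presence of Ifi204 and Ifi205 rests on very few reads. Aim2 made up 70.0%, 67.9% and 37.8% of the summed FPKM of the 5 genes in IL-33 replicates 1, 2 and 3.

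**Figure D1:**
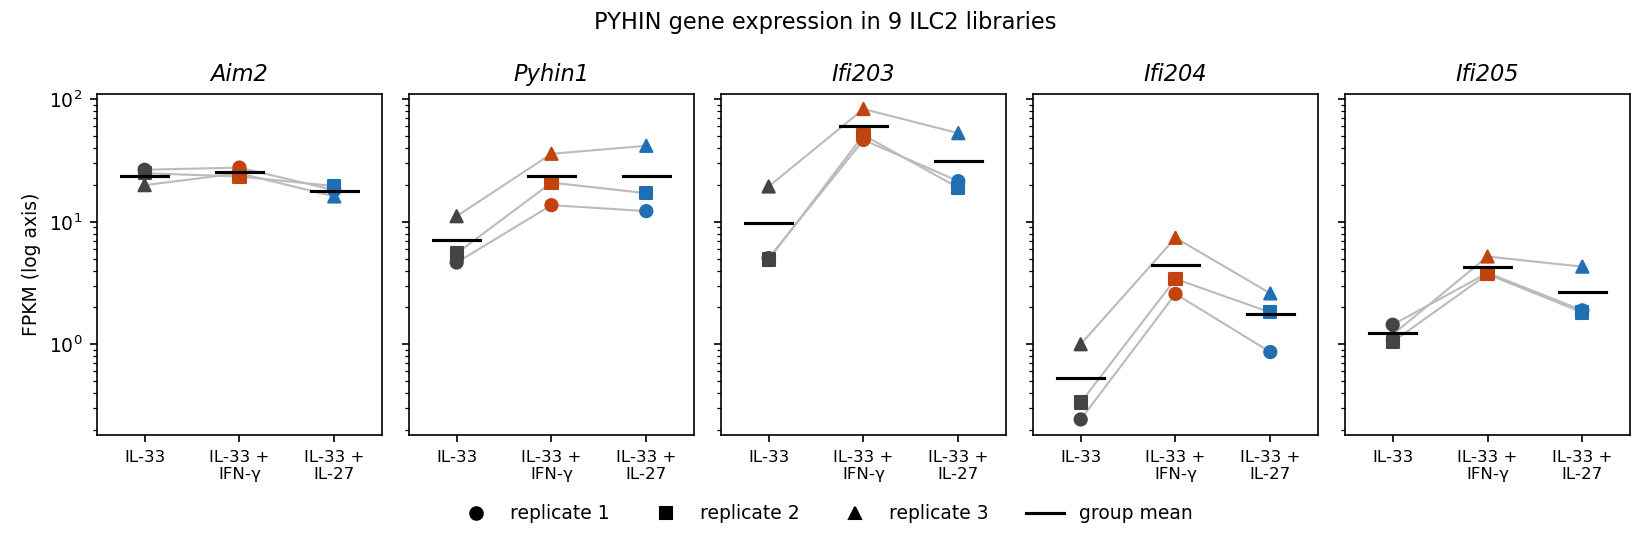
FPKM (log axis) of the 5 PYHIN genes in 9 libraries; symbols mark the replicate number, grey lines join libraries with the same number, and black bars are group means. Ifi203, Ifi204, Ifi205 and Pyhin1 are higher with IFN-γ than with IL-33 alone in every library, while Aim2 stays between 16.1 and 27.7 FPKM throughout.

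Ifi203, on average the most abundant of the 5 under both cytokines, had their largest log2 fold change with IFN-γ on the log2(FPKM + 1) scale. It was at 46.6, 51.0 and 83.3 FPKM in the IFN-γ libraries (60.3 ± 20.0, SD, n = 3) against 9.79 ± 8.33 FPKM with IL-33 alone. All IFN-γ libraries were above all control libraries. Within replicate numbers the level was 9.24, 10.4 and 4.29 times that of the control. The log2 fold change on the log2(FPKM + 1) scale was 2.72 ± 0.53 (SE), a 6.59-fold rise with a 95% interval of 2.92 to 14.9 (limma, Benjamini-Hochberg adjusted p = 0.0234 over 11014 genes). In a second fit that kept the replicate number as a block (the blocked fit), the adjusted p was 0.00034. Without the block the adjusted p rose past 0.05 when IL-33 replicate 1 (adjusted p = 0.0859) or replicate 2 (0.0925) was left out, and likewise IFN-γ replicate 1 (0.0579), 2 (0.0748) or 3 (0.0990). It was 0.164 with no filter on low values and 0.0514 with the 2 groups fitted alone. With the replicate 3 libraries removed from all groups, the log2 fold change was 3.06 and the limma adjusted p 0.00166.

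Ifi203 was the 1 gene of the 5 that passed the test with IFN-γ. Of all 11014 tested genes, 2.19% were called higher and 0.717% lower in this comparison. The blocked fit called 4 of the 5 higher, against 6.51% of all genes, left out Aim2 and called none of the 5 lower, against 4.66%. Groups did not overlap, with IFN-γ above IL-33 alone, for the same 4 genes, as for 11.9% of all genes. Both counts include Ifi204, which passed the filter on low values through the treated groups, so a difference was built into its selection. The median log2 fold change over the 5 was 1.58, beside 0.03 for all tested genes.

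Pyhin1 was at 13.7, 20.9 and 35.9 FPKM under IFN-γ (23.5 ± 11.3, SD, n = 3) and at 7.09 ± 3.50 FPKM with IL-33 alone. The groups did not overlap, though the lowest IFN-γ library was close to the highest control library. Within replicate numbers the level was 2.94, 3.79 and 3.23 times the control, a narrower range than between numbers. Its fitted log2 fold change was 1.58 ± 0.49 (SE), with a limma adjusted p of 0.149 and of 0.00136 in the blocked fit. The sum of Pyhin1 and BC094916 was 4.65, 5.51 and 15.7 FPKM under IL-33 and 15.7, 24.5 and 49.2 FPKM under IFN-γ. In each replicate number this sum was higher with IFN-γ, as Pyhin1 alone was.

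Ifi204, a gene with a link to STING, was at 2.58, 3.42 and 7.40 FPKM under IFN-γ (4.46 ± 2.58, SD, n = 3). These values were all above what 3 fragments give, and the control values all below it. Within replicate numbers the level was 10.6, 10.2 and 7.40 times the control. The ratio of mean FPKM was 8.49, above the 6.16 of Ifi203, but it rests on control values of very few reads. On the log2(FPKM + 1) scale the log2 fold change of Ifi204 was 1.77 ± 0.43 (SE), with a limma adjusted p of 0.0620 and of 0.00802 in the blocked fit. With a control mean of 0.526 FPKM, Ifi204 passed the filter of a mean of 1 FPKM over all libraries through the treated groups, so a difference was built into its selection.

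Ifi205 was at 3.82, 3.73 and 5.20 FPKM under IFN-γ (4.25 ± 0.822, SD, n = 3) against 1.23 ± 0.200 FPKM. The groups did not overlap, and the log2 differences within replicate numbers were 0.98, 1.21 and 1.49. The log2 fold change was 1.23 ± 0.33 (SE), with a limma adjusted p of 0.0930 and of 0.0337 in the blocked fit. Summed with Mnda, from which it cannot be told apart over much of its length, Ifi205 went from 2.38, 2.06 and 2.80 FPKM to 7.78, 8.23 and 11.4 FPKM. The sum also did not overlap between the groups.

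Aim2, the DNA sensor of the inflammasome, did not pass in either fit. It was at 27.7, 23.4 and 24.9 FPKM under IFN-γ (25.3 ± 2.18, SD, n = 3), and these values overlapped those of the control libraries. The level was 1.04, 0.939 and 1.25 times the control within replicate numbers, higher in 2 of 3. Its fitted log2 fold change was 0.09 ± 0.18 (SE), with a limma adjusted p of 0.877. The 95% interval of the fold ran from 0.802 to 1.42, and from 0.853 to 1.34 in the blocked fit. A change of the size fitted for Ifi203 or Pyhin1 therefore lies outside the interval of Aim2. Its share of the summed FPKM of the 5 genes was 29.4%, 22.9% and 15.9% with IFN-γ, below the 3 control shares.

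**Figure D2:**
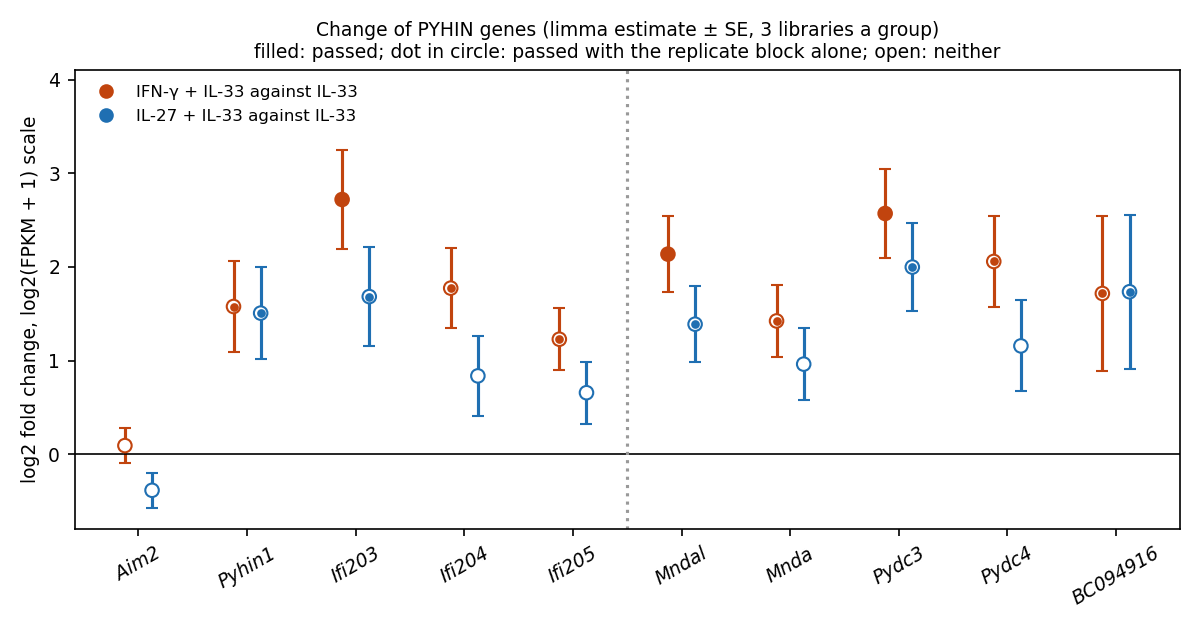
Log2 fold change (log2(FPKM + 1) scale; bars are limma's SE) of the 5 PYHIN genes (left of the dotted line) and the 5 other tested genes of the locus, with IFN-γ (orange) or IL-27 (blue) against IL-33 alone, 3 libraries a group. Filled points passed without a block (Ifi203, Mndal and Pydc3 under IFN-γ), and a dot in a circle marks genes that passed in the blocked fit alone.

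IL-27 was compared with the same 3 control libraries, so the results of both cytokines share them and are given side by side. None of the 5 genes passed the test with IL-27 (limma; at an unadjusted p under 0.05 it was 2 of the 5, Ifi203 and Pyhin1, against 9.51% of all genes). Of all tested genes, 0.908% were called higher and 0.118% lower. The blocked fit called the same 2, Ifi203 and Pyhin1, higher, against 3.37% of all genes. The median log2 fold change of the 5 was 0.84, beside 0.01 for all tested genes.

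Pyhin1 was at 12.2, 17.1 and 41.7 FPKM under IL-27 (23.7 ± 15.8, SD, n = 3). Every library was above the control libraries, and the level was 2.63, 3.10 and 3.76 times the control within replicate numbers. In log2 units the fold change was 1.51 ± 0.49 (SE), with a limma adjusted p of 0.299 and of 0.00291 in the blocked fit. Ifi203 was at 21.5, 19.0 and 52.9 FPKM (31.1 ± 18.9), and its lowest library lay just under the highest control library, so the groups overlapped. The level was still 4.25, 3.86 and 2.73 times the control within replicate numbers. Its log2 fold change was 1.68 ± 0.53 (SE), with a limma adjusted p of 0.264, of 0.00484 in the blocked fit and of 0.0445 when IL-33 replicate 3 was left out. With the replicate 3 libraries removed from all groups, the limma adjusted p for Ifi203 was 0.0191.

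Ifi204 was at 0.863, 1.82 and 2.60 FPKM under IL-27 (1.76 ± 0.870, SD, n = 3), and its lowest library lay under the highest control library. Ifi205 was at 1.89, 1.82 and 4.3 FPKM (2.67 ± 1.41), above all control libraries by a small margin in replicates 1 and 2. Log2 fold changes were 0.84 ± 0.43 (SE) for Ifi204 and 0.66 ± 0.33 for Ifi205. Neither passed the limma test (adjusted p = 0.606 and 0.594) or the blocked fit (0.154 and 0.254). Groups with IL-27 above IL-33 alone did not overlap for Ifi205 and Pyhin1, as for 8.29% of all genes. For Ifi205 the IL-27 values of replicates 1 and 2 lie under what 3 fragments give (1.90 to 2.09 FPKM), as do all its control values. This separation therefore rests on very few reads. The replicate 1 value of Ifi204 under IL-27 is also under what 3 fragments give.

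Aim2 was lower in all 3 IL-27 libraries than in any control library, at 18.1, 19.6 and 16.1 FPKM (17.9 ± 1.74, SD, n = 3). The distance between the groups was small, since the lowest control library had 19.9 FPKM, and 5.72% of all genes did not overlap in this direction. The level was 0.682, 0.785 and 0.809 times the control within replicate numbers. The log2 fold change of -0.38 ± 0.18 (SE) did not pass the limma test (adjusted p = 0.562) or the blocked fit (adjusted p = 0.176, unadjusted p = 0.0256). Its share of the summed FPKM of the 5 was 33.2%, 33% and 13.7%.

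**Figure D3:**
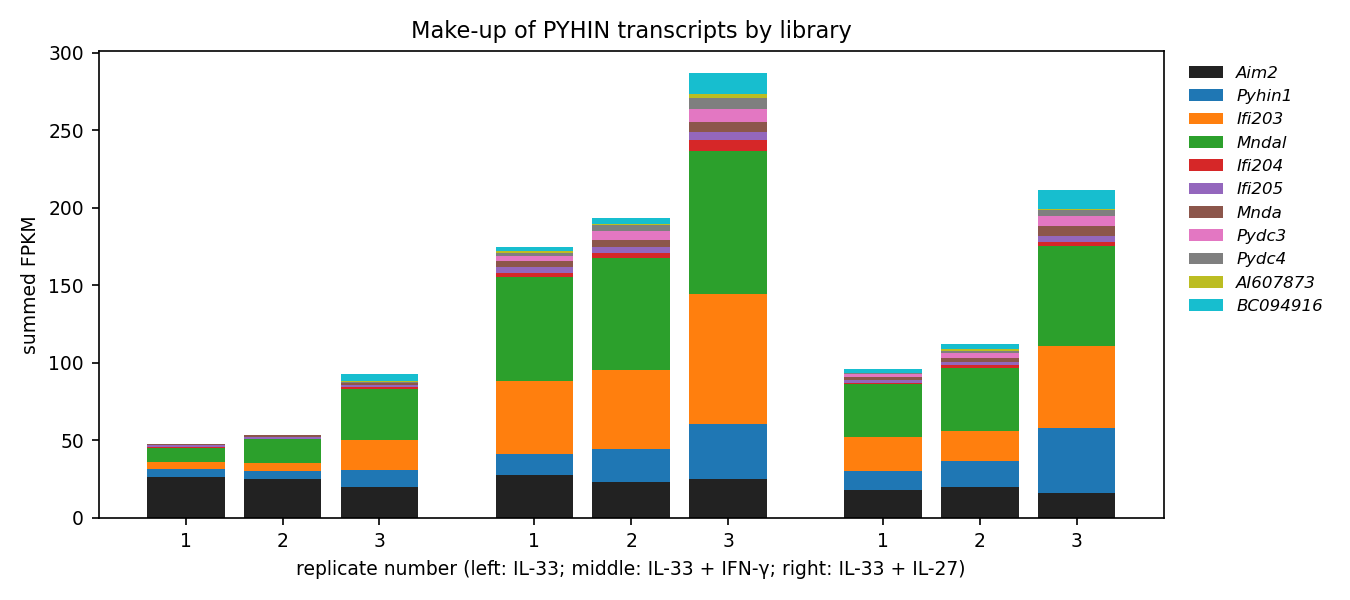
Summed FPKM of the 11 PYHIN genes above 0, stacked by gene, in each library (bars; the x axis gives the replicate number, with IL-33 at the left, IFN-γ in the middle and IL-27 at the right). Aim2 is the lowest segment and the largest share in IL-33 replicates 1 and 2, while Ifi203 and Mndal make up most of the IFN-γ bars.

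The 2 cytokines were then compared directly. No gene of the 5 passed (limma adjusted p = 1 for each), nor did any of the 11014 genes (0%), although 483 genes (4.39%) were under an unadjusted p of 0.05, among the 5 Aim2 alone. With the block 0.182% of all genes were called in either direction, and none of the 5. For Aim2 all IFN-γ libraries were above all IL-27 libraries, as for 5.5% of genes. The log2 difference was 0.48 ± 0.18 (SE; limma unadjusted p = 0.0272, adjusted p = 0.254 in the blocked fit). Ifi203 was 2.17, 2.69 and 1.57 times as high with IFN-γ within replicate numbers, with a log2 difference of 1.04 ± 0.53 and a limma adjusted p of 0.140 in the blocked fit. Log2 differences were 0.94 ± 0.43 for Ifi204 and 0.57 ± 0.33 for Ifi205, and in both genes IFN-γ was higher in 3 of 3 replicate numbers, as for 18% of all genes.

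For Pyhin1 the direct difference was near 0. The level with IFN-γ was 1.12, 1.22 and 0.861 times that with IL-27 within replicate numbers. The log2 difference was 0.07 ± 0.49 (SE), with a 95% interval of the fold from 0.492 to 2.24 and, in the blocked fit, from 0.801 to 1.38. Differences of up to these bounds remain possible. Leaving out single libraries moved the log2 difference between -0.29 and 0.56, and it was below 0 without IFN-γ replicate 3 (-0.28), IL-27 replicate 1 (-0.29) or IL-27 replicate 2 (-0.06).

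The order of the levels differed by group. With IFN-γ, Ifi203 was above the other 4 genes in each library, Aim2 and Pyhin1 overlapped, and Ifi204 and Ifi205 overlapped. With IL-27, the ranges of Ifi203, Pyhin1 and Aim2 all overlapped, and so did those of Ifi204 and Ifi205. The summed FPKM of the 5 genes was 42.4 ± 8.82 under IL-33, 118 ± 33.9 under IFN-γ and 77.2 ± 35.1 under IL-27 (SD, n = 3).

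Replicate 3 libraries tended to be high for the family. Among the 11 PYHIN genes above 0, replicate 3 held the highest value for 8 under IL-33, 10 under IFN-γ and 9 under IL-27. Over all tested genes these shares were 37.8%, 35.9% and 37.2%. Aim2 was an exception, with its highest value in another replicate in all 3 groups. The replicate 3 libraries are also those with the higher fibroblast markers given above, and their part in the PYHIN levels was not tested. With replicates 1 and 2 alone, limma's log2 fold changes with IFN-γ were 1.63 for Ifi204, 1.10 for Ifi205, 1.56 for Pyhin1 and -0.02 for Aim2, none past the threshold (adjusted p = 0.175, 0.260, 0.0742 and 0.988).

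With IFN-γ, 2 of the 5 other tested genes of the cluster passed, Mndal and Pydc3, against 2.19% of all tested genes called higher. All 5 had positive log2 fold changes (median 2.06, beside 0.03 for all tested genes). Mndal, a close relative of the myeloid nuclear differentiation antigen, was the most abundant of them, at 8.85, 15.3 and 32.8 FPKM under IL-33, 67.1, 72.1 and 92.1 under IFN-γ and 34.6, 41.1 and 64.4 under IL-27. It rose with IFN-γ (log2 fold change 2.14 ± 0.41 SE, limma adjusted p = 0.0219). Its adjusted p exceeded 0.05 when IL-33 replicate 1 (0.0540) or replicate 2 (0.0825) was omitted, and when IFN-γ replicate 1 (0.0598), 2 (0.0748) or 3 (0.0923) was, and also with no filter on low values (0.150) or in a fit of the 2 groups alone (0.0634). Of the 50-base stretches of Mndal, 28.0% occurred in another PYHIN gene (15.9% in Mnda, 14.1% in Ifi205 and 10.3% in Ifi204), so its level is uncertain in the same way as that of Ifi204. With IL-27 its log2 fold change was 1.39 (limma adjusted p = 0.229, 0.0132 in the blocked fit, 0.0286 without IL-33 replicate 3). Ifi203 and Mndal, which overlap in the annotation, summed to 13.9, 20.3 and 52.2 FPKM under IL-33 and to 114, 123.1 and 175 FPKM under IFN-γ.

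Pydc3 and Pydc4, named for their pyrin domain, were close to 0 with IL-33 alone. Pydc3 was listed at 0, 0.335 and 0 FPKM under IL-33 and at 3.09, 5.92 and 8.90 FPKM under IFN-γ. Every control value of both genes lies under what 3 fragments give (1.11 to 1.23 FPKM for Pydc3, 1.14 to 1.26 for Pydc4), and both passed the filter of a mean of 1 FPKM through the treated groups, so a difference was built into their selection. The fitted log2 fold change of Pydc3 was 2.57 ± 0.47 (SE), and it passed the test (limma adjusted p = 0.0190). Its adjusted p exceeded the threshold when IL-33 replicate 1 (0.0659) or replicate 2 (0.0502) was omitted, as well as IFN-γ replicate 2 (0.0772) or 3 (0.0876), when all replicate 3 libraries were removed (0.110) and with no filter on low values (0.118). Pydc4 was listed at 0, 0 and 0.8 FPKM and then at 2.24, 4.08 and 6.90 FPKM under IFN-γ, and it narrowly missed the threshold (limma adjusted p = 0.0551, 0.00476 in the blocked fit, 0.0496 without IL-27 replicate 3). With IL-27 they reached 1.48, 3.52 and 6.60 FPKM (Pydc3; limma adjusted p = 0.106, 0.0197 in the blocked fit) and 0.851, 1.35 and 3.6 FPKM (Pydc4; 0.473 and 0.0662).

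Mnda, which shares 48.4% of its stretches with Ifi205 and 78.8% with any other PYHIN gene, was at 0.937, 1.02 and 1.60 FPKM under IL-33, 3.96, 4.5 and 6.20 under IFN-γ and 1.84, 2.63 and 6.30 under IL-27. BC094916, the copy of Pyhin1, was listed at 0, 0 and 4.60 FPKM, then at 2.04, 3.58 and 13.3 under IFN-γ and 2.37, 3.48 and 12.7 under IL-27. In the blocked fit Mnda passed with IFN-γ (limma adjusted p = 0.0176) and not with IL-27 (0.101), and BC094916 passed with both (0.00734 and 0.0110). AI607873 had at most 2.70 FPKM and Ifi202b was listed at 0 in all 9 libraries, so neither was tested. For Ifi202b, 3 fragments would correspond to 1.71 to 1.88 FPKM.

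Of the 12 PYHIN genes of the locus, 10 were tested, 3 rose with IFN-γ and none with IL-27, against 2.19% and 0.908% of all tested genes (limma). With IL-27, 6 were under an unadjusted limma p of 0.05, against 9.51%. In the blocked fit 9 passed with IFN-γ, all except Aim2, against 6.51% of all genes called higher, and 5 under IL-27 (Ifi203, Pyhin1, Mndal, Pydc3 and BC094916), against 3.37%. Among the 10, Ifi204, Pydc3 and Pydc4 passed the filter on low values through the treated groups. Outside the cluster, the 5 listed genes on either side gave no call. Fcer1a, a chain of the high-affinity IgE receptor, was the 1 of these 10 that was tested, with log2 fold changes of 0.04 under IFN-γ and 0.57 under IL-27 (limma adjusted p = 0.991 and 0.889). The other 9 had at most 1 FPKM in any library, and the 5 olfactory receptor genes beyond Ifi205 were listed at 0.

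**Figure D4:**
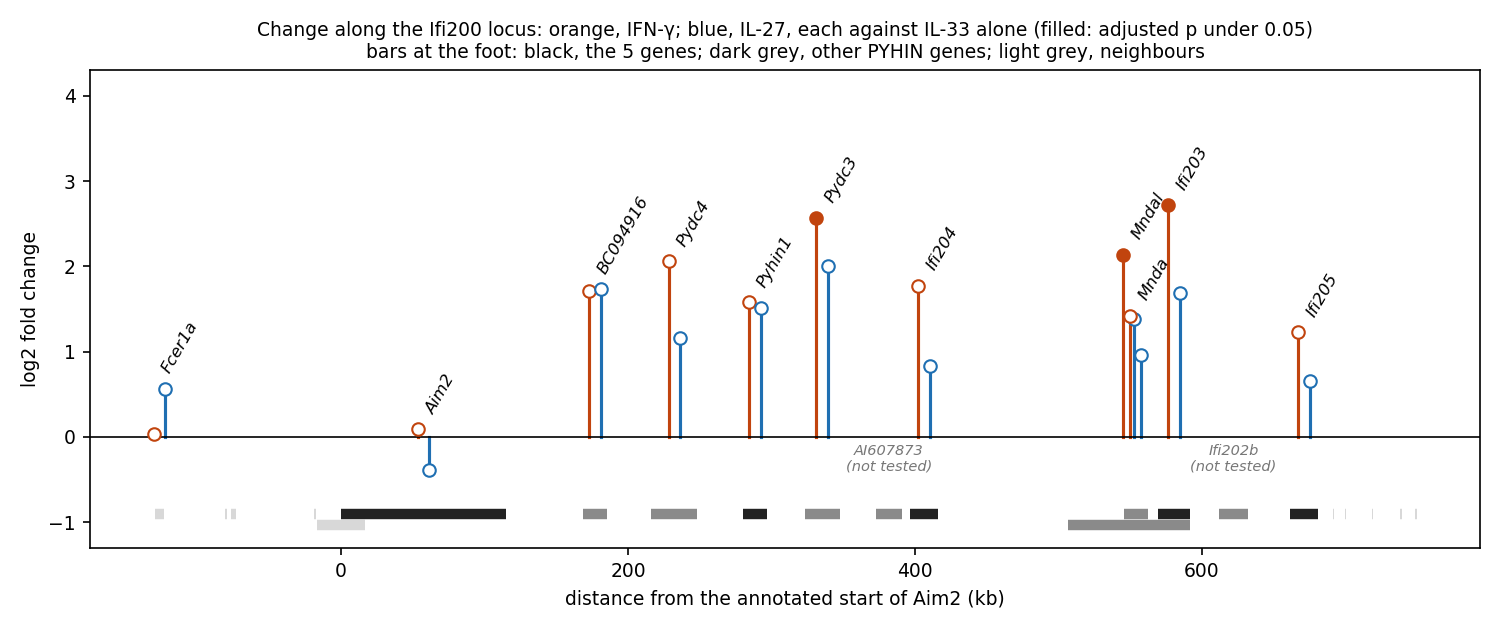
Log2 fold change on the log2(FPKM + 1) scale of the tested genes along the Ifi200 locus, with IFN-γ (orange) or IL-27 (blue) against IL-33 alone; the x axis is the distance in kb from the annotated start of Aim2, and the bars at the foot are the genes. Aim2 at the left end lies near 0, and all 9 other tested PYHIN genes lie above 0 for both cytokines.

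Likeness of pattern was measured as Pearson's r of log2(FPKM + 1) over the 9 libraries, which share cell source and depth; it is a description of these libraries. Ifi203, Ifi204, Ifi205 and Pyhin1 correlated with each other at 0.842 to 0.932, and Aim2 with them at -0.447 to 0.014. The tested genes most like Ifi203 were Lbh (0.984), Gm4902 (0.977) and its neighbour Mndal (0.976). For Pyhin1 they were Il16 (0.988), Smpdl3a (0.987) and Rnf114 (0.984). Ifi204 was most like Pydc4 (0.980), H2-T3 (0.978) and Foxo1 (0.970), and Ifi205 was most like Lrrc16a (0.961), Mnda (0.957) and Omd (0.953). For Aim2 they were Prkcb (0.947), Slc46a1 (0.912) and Shq1 (0.909), and no gene exceeded 0.95.

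The partners of AIM2 in the inflammasome were examined next. Of 12 tested inflammasome genes among 19 listed, 3 rose with IFN-γ and none fell, and 2 rose with IL-27 (median log2 fold changes 0.45 and 0.38). Over all tested genes 2.19% and 0.908% were called higher. In the blocked fit 5 were higher and 1 lower with IFN-γ, against 6.51% and 4.66% of all genes, and 4 were higher with IL-27, against 3.37%. The gene lower there was Nlrp3, an inflammasome sensor named after its values were seen, with a log2 fold change of -1.59 (adjusted p = 0.0475 in the blocked fit and 0.0746 in limma without the block). Pycard, which encodes the adaptor ASC, was at 17.4, 20.7 and 23.9 FPKM under IL-33, 56.0, 52.7 and 40.2 under IFN-γ and 27.2, 34.7 and 31.9 under IL-27. It rose with IFN-γ (log2 fold change 1.22 ± 0.20 SE, limma adjusted p = 0.0101, 0.0554 without IFN-γ replicate 2) and did not pass with IL-27 (limma adjusted p = 0.343). Casp1, the protease of the complex, was at 41.9, 42.7 and 55.9 FPKM under IL-33, 93.4, 115 and 122 under IFN-γ and 102, 92.5 and 102 under IL-27. It rose with both (log2 fold changes 1.22 ± 0.18 and 1.07 ± 0.18 SE, limma adjusted p = 0.00513 and 0.0207). Under IL-27 it missed the threshold without IL-33 replicate 1 (0.0820) or replicate 2 (0.108), IL-27 replicate 1 (0.0920), 2 (0.0675) or 3 (0.0912) or IFN-γ replicate 2 (0.0502).

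Il18bp, whose product binds and neutralises IL-18, was at 1.70, 0.777 and 0 FPKM under IL-33, 57.3, 55.8 and 80.1 under IFN-γ and 33.6, 14.0 and 29.7 under IL-27. It rose with both cytokines (log2 fold changes 5.26 ± 0.41 and 3.90 ± 0.41 SE, limma adjusted p = 0.00018 and 0.00182). With a control mean of 0.825 FPKM, Il18bp passed the filter of a mean of 1 FPKM through the treated groups, so a difference was built into its selection. Casp8, a protease of cell death, was at 88.7 ± 13 FPKM under IL-33 and did not pass with IFN-γ (115 ± 28.5 FPKM, limma adjusted p = 0.522) or IL-27 (127 ± 26.7 FPKM, 0.537, 0.0320 in the blocked fit). The cytokine substrates of the complex, looked up after their values were seen, were near 0. Il1b was listed at 0 in all 9 libraries, and Il18 in all except IL-27 replicate 1 (1.56 FPKM). Gsdmd, the gasdermin D gene, also chosen after its values were seen, was at 12.3, 11.8 and 19.8 FPKM under IL-33, 25.1, 38.3 and 56.1 under IFN-γ and 36.7, 34.4 and 52.7 under IL-27, and missed the threshold in both comparisons (limma adjusted p = 0.0551 and 0.0797), but passed in the blocked fit in both (0.00252 and 0.00313).

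Among 17 tested sensors of other kinds, Zbp1 was the 1 that rose, with IFN-γ and with IL-27. The DNA sensor cGAS is not among the 17, since neither symbol under which it was sought (Mb21d1 and Cgas) was listed in the data. Over all tested genes 2.19% and 0.908% were called higher. Zbp1, a sensor of Z-form nucleic acids, was at 12.9, 19.3 and 39.9 FPKM under IL-33, 194, 290.1 and 459.8 under IFN-γ and 207, 282 and 372 under IL-27. Its log2 fold changes were 3.71 ± 0.42 and 3.63 ± 0.42 SE (limma adjusted p = 0.00171 and 0.00313, the latter 0.0739 with no filter on low values). In the blocked fit 4 of the 17 were higher with each cytokine, against 6.51% (IFN-γ) and 3.37% (IL-27) of all genes. The RNA helicase genes Ddx58, which encodes RIG-I, and Dhx58 had log2 fold changes of 1.38 and 2.16 under IFN-γ (limma adjusted p = 0.0553 and 0.0720, each passing in the blocked fit at 0.00136 and 0.00100 and without IL-33 replicate 3 at 0.0165 and 0.0234). With IL-27 they were 1.42 and 1.95 (limma adjusted p = 0.0921 and 0.195, 0.00216 and 0.00273 in the blocked fit). For Ddx58 the IL-27 value without IL-33 replicate 3 was 0.0240. Hmgb1, an abundant DNA-binding protein gene at 387 ± 79.5 FPKM under IL-33, did not pass (311 ± 52.6 FPKM under IFN-γ, limma adjusted p = 0.536). Median log2 fold changes over the 17 were 0.05 under IFN-γ and -0.02 under IL-27.

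**Figure D5:**
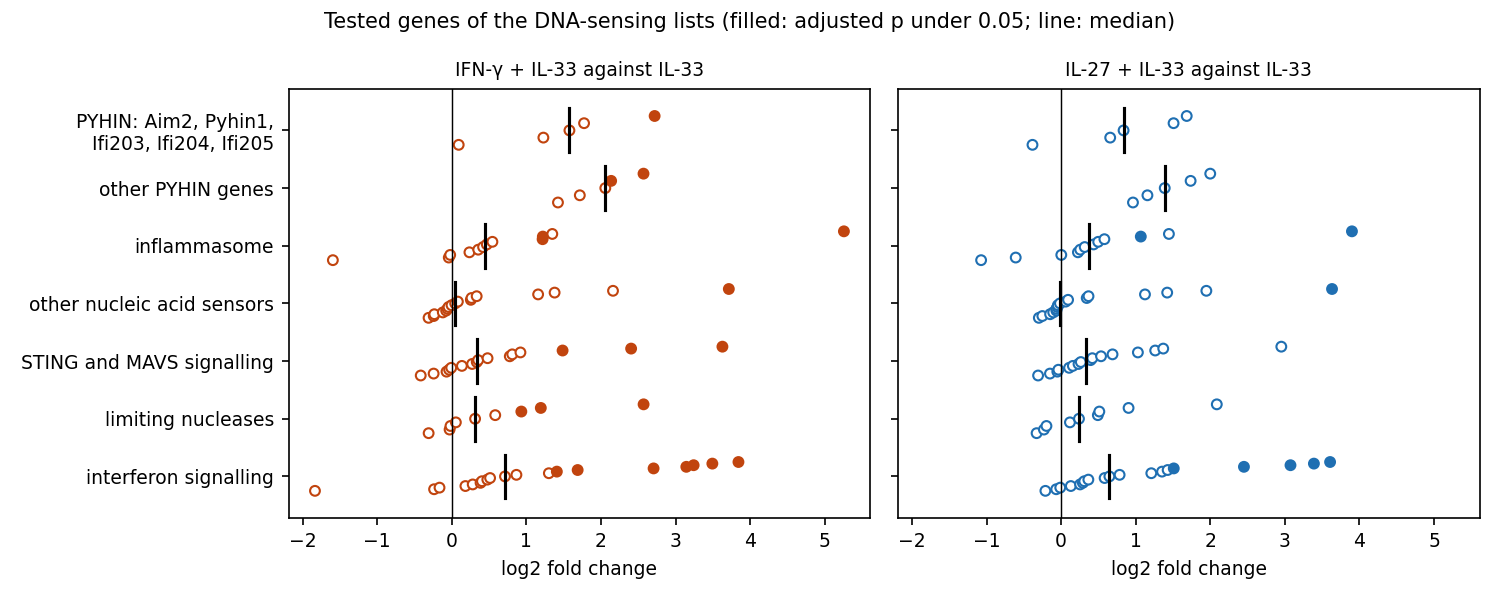
Log2 fold change on the log2(FPKM + 1) scale of each tested gene in the lists of PYHIN and nucleic acid sensing genes, with IFN-γ (left) and IL-27 (right) against IL-33 alone; filled circles have an adjusted p under 0.05 and vertical bars are list medians. The medians of the other sensors are near 0 (0.05 and -0.02), while those of the 5 PYHIN genes lie at 1.58 and 0.84. Among the other sensors Zbp1 is at the far right, and further genes, among them Dhx58 (2.16 and 1.95) and Ddx58 (1.38 and 1.42), also lie above 0.

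Of 16 tested genes of STING and MAVS signalling, 3 rose with IFN-γ and none passed with IL-27 (median log2 fold changes 0.34 and 0.33). Over all tested genes 2.19% and 0.908% were called higher. With IL-27, 5 of the 16 were under an unadjusted limma p of 0.05, against 9.51% of all genes. The blocked fit called 2 higher with IL-27, against 3.37%. Tmem173, which encodes STING, was at 35.9, 21.3 and 22.9 FPKM under IL-33, 44.8, 34.1 and 60.6 under IFN-γ and 39.3, 41.3 and 47.3 under IL-27, and did not pass (log2 fold changes 0.78 and 0.69, limma adjusted p = 0.177 and 0.397). Myd88, an adaptor of Toll-like and IL-33 receptors, was at 64.7 ± 11.3 FPKM under IL-33 and 54.0 ± 2.87 under IFN-γ and did not pass (limma adjusted p = 0.559). Unc93b1, the chaperone of endosomal Toll-like receptors, rose with IFN-γ from 1.88 ± 1.16 to 13.3 ± 1.90 FPKM (SD, n = 3; limma adjusted p = 0.00568, 0.0544 with no filter on low values). Trim56, a ubiquitin ligase, rose from 4.05 ± 1.17 to 13.1 ± 2.70 FPKM (limma adjusted p = 0.0277), but missed the threshold when any IFN-γ replicate or IL-33 replicate 1 or 2 was omitted (highest adjusted p 0.115). With IL-27 Trim56 passed in the blocked fit (adjusted p = 0.00802, 0.106 in limma without the block). Irf7, an interferon regulatory factor, was at 0, 0.597 and 9.60 FPKM under IL-33 and 20.7, 27.3 and 51.0 under IFN-γ (limma adjusted p = 0.0423). Irf7 missed the threshold in 7 of 9 single omissions, all except those of IL-33 replicate 3 and IL-27 replicate 3 (highest adjusted p 0.155). With IL-27 Irf7 was at 19.8, 9.54 and 34.7 FPKM (limma adjusted p = 0.176, 0.0136 in the blocked fit, 0.00982 without IL-33 replicate 3).

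Of 9 tested nucleases and editors that limit the nucleic acids available to sensors, 3 rose with IFN-γ, against 2.19% of all tested genes. None passed with IL-27, against 0.908% called higher. With IL-27, 3 of the 9 were under an unadjusted limma p of 0.05, against 9.51% of all genes. The blocked fit called 2 higher with IL-27, against 3.37%. The median log2 fold changes of the 9 were 0.31 and 0.24. Samhd1, a dNTP hydrolase gene, was at 24.0, 41.2 and 94.6 FPKM under IL-33, 170, 242 and 509 under IFN-γ and 119, 181 and 352 under IL-27. Replicate 3 held the highest level in each group. The gene passed with IFN-γ at a limma adjusted p of 0.0422 and with IL-27 in the blocked fit alone (0.176, 5.19e-05 in the blocked fit). Adar, an RNA editing enzyme gene, rose with IFN-γ from 8.64 ± 1.08 to 21.1 ± 2.95 FPKM (SD, n = 3; limma adjusted p = 0.00957, 0.103 with libraries 1 and 2 alone), and Apobec3, a cytidine deaminase gene, from 53.9 ± 11.8 to 102 ± 5.78 FPKM (limma adjusted p = 0.0281). With IL-27 Adar passed in the blocked fit (adjusted p = 0.0206, 0.0724 in limma without the block) and with a filter of 5 FPKM (0.045). Samhd1 and Apobec3 missed the threshold when IL-33 replicate 1 or 2, any IFN-γ replicate or IL-27 replicate 2 was omitted (highest adjusted p 0.144 and 0.111).

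Interferon signalling genes stood for the upstream arm. Of 19 tested, 7 rose with IFN-γ and 5 under IL-27, against 2.19% and 0.908% of all tested genes. Both counts include Ifng, named after its values were seen, which was at 0, 0 and 1.0 FPKM under IL-33. It passed the filter of a mean of 1 FPKM through the treated groups, so a difference was built into its selection. None of the 19 fell, against 0.717% and 0.118%. Their median log2 fold changes were 0.71 and 0.65. In the blocked fit 9 were higher and 1 lower with IFN-γ, against 6.51% and 4.66% of all genes. With IL-27, 8 were higher there, against 3.37%. Irf8, a transcription factor gene of the IRF family, rose from 7.46 ± 2.48 FPKM to 71.6 ± 6.71 under IFN-γ and 45.0 ± 13.4 under IL-27 (limma adjusted p = 0.00032 and 0.00275). Irf1 was at 51.5 ± 35.95, 525 ± 153 and 388 ± 81.1 FPKM in the 3 groups, a rise with both cytokines (limma adjusted p = 0.00182 and 0.00648, the latter 0.107 with no filter on low values). Socs1, a feedback inhibitor, rose with IFN-γ to 40.7 ± 9.63 FPKM from 5.50 ± 2.21 and reached 15.1 ± 1.08 under IL-27 (limma adjusted p = 0.000707 and 0.0520, the latter 0.0278 in the blocked fit and 0.0270 without IL-33 replicate 1). Ifnb1, the interferon β gene that STING signalling can induce, was listed at 0 in all 9 libraries.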

How the data were processed

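The 9 tables were deposited with 1 value per gene and library. Per the submitters' processing notes, the authors used Bowtie2 2.1.0, TopHat2 2.0.8 and Cufflinks 2.1.1 with mouse build mm9; settings and the gene annotation are not given in the sources used here. The unit is not written in the tables. The deposited values were taken as FPKM from the Cufflinks column name and from their range. Replicate 3 tables hold 1 decimal and mark digit groups with commas, which were taken out.

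The test covered the 11014 of 23234 genes whose mean over all libraries reached 1 FPKM. It was run on log2(FPKM + 1) with limma 3.58.1 in R 4.3.3 (all 3 groups in 1 fit, intensity trend, two-sided, Benjamini-Hochberg adjustment over all tested genes of a comparison, threshold 0.05). All 5 PYHIN genes passed this filter. A log2 fold change on this scale understates the change of low genes. Depth was estimated from the steps between low values with lengths from GENCODE vM1, and is approximate. Steps were sought in a preset range alone, which bounds the depths that the estimate can return, and the replicate 3 values hold 1 decimal. Fits and the depth estimate were tested on simulated data, the latter only at depths within those bounds. Tables and figures were made with Python 3.11.15, pandas 2.3.3 and matplotlib 3.10.9.

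Deviations from group means correlated at 0.128 to 0.367 between libraries of different groups with the same replicate number (9 pairs). With other numbers they correlated at -0.298 to -0.0251 (18 pairs). Deviations cancel out within a group, so these ranges are not independent of each other. Equal numbers were treated as pairs in the blocked fit and in the values within replicate numbers, and not in the main fit. The labels do not say what a number stands for. The blocked value is given where it changes a call.

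The members, gene lists and tests were chosen with earlier results of these data known. Named were the PYHIN genes, the other listed genes of their locus with 5 neighbours on either side, the 3 smallest adjusted p-values with IFN-γ and the 2 highest means of each further list, and the 3 genes most correlated with each PYHIN gene; an interferon signalling gene that this rule names is not reported here. Symbols converted to dates (25) were left unnamed. Promoter windows are RefSeq's (GRCm38.p6), with 10 of 12 family genes matched by symbol or synonym.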

Additional observations from a re-analysis of the deposited data

How the results depend on the processing

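The replicate block raised the number of the 5 PYHIN genes called from 1 to 4 with IFN-γ and from 0 to 2 with IL-27, and left it at 0 between the cytokines. All genes called went from 320 to 1230, from 113 to 567 and from 0 to 20, and all 320 and all 113 were kept. With IFN-γ, the members called were 0 with no filter on low values and 0 with the 2 compared groups fitted alone, where the limma adjusted p of Ifi203 was 0.164 and 0.0514, and 2 with no intensity trend, where Ifi204 was added (0.0463). With IL-27 they were 1 with libraries 1 and 2 alone. Single omissions gave 0 to 1 in both comparisons, and IL-33 replicate 3 was the one whose omission gave the call with IL-27. With no filter, all genes called were 162, 45 and 4; with the 2 groups alone, 187 and 63; with libraries 1 and 2 alone, 176, 68 and 2; with no trend, 2 between the cytokines. Single omissions gave 161 to 303, 50 to 128 and 0 to 2. The cause of these shifts was not tested.

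Signs changed for genes near 0. The log2 fold change of Aim2 with IFN-γ was -0.015 with libraries 1 and 2 alone and -0.026 to 0.175 over single omissions. Between the cytokines, omissions gave -0.287 to 0.559 for Pyhin1 (-0.277 and -0.06 in the other 2 omissions below 0) and -0.665 to 0.588 for BC094916 (0.453 and 0.157 in the other 2 above 0). With IL-27, omitting IL-33 replicate 2 gave 0.015 for Hmgb1 and 0.061 for Myd88, whose omissions ranged from -0.279 and -0.190. A pseudocount of 0.25 FPKM, a filter of 5 FPKM and both rescalings changed no count of members called. The rescalings moved the median of all genes by less than 0.1. With no filter on low values, Mndal, Pydc3, Unc93b1, Trim56, Irf7, Apobec3 and Samhd1 lost their calls with IFN-γ (limma adjusted p = 0.0544 to 0.238), and Casp1, Zbp1 and Irf1 theirs with IL-27 (0.0673 to 0.107). That pseudocount brought Pydc3 past the threshold with IL-27 (limma adjusted p = 0.0448).

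Depth limits Ifi204, Ifi205, Pydc3, Pydc4 and Mnda, whose control values all lie under what 3 fragments give. Under IL-27 the replicate 1 values of Ifi204, Ifi205, Pydc4 and Mnda also do, as does that of Ifi205 in replicate 2. The split of reads between Ifi205 and Mnda, and between Pyhin1 and BC094916, cannot be settled from these values.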
